A study of Mus musculus with 3 samples.

Results

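The thyroid hormone action genes examined here are 6 genes chosen by name, Dio2, Thra, Thrb, Rxrg, Tshr and Trhde, of the 25154 genes listed in any of the 3 libraries of the series. Each library holds nuclei from interscapular brown adipose tissue (BAT) of adult wild-type C57Bl6 mice, and there is 1 untreated, 1 sham and 1 denervated library. As the study's methods describe the surgery, the intercostal nerves of the left BAT lobe were cut, and tissue was taken within days of it. The study's scheme for the denervated library also lists tamoxifen, which its text on the untreated library does not mention. Tissue of several animals was pooled, as the study gives it for the untreated and denervated libraries. The floating layer of brown adipocytes (BAs) and fragmented vasculature was lysed, and nuclei were sorted and captured on the BD Rhapsody system, which tags each RNA molecule with a unique molecular identifier (UMI). With 1 library per condition, a difference between libraries has no replicate check, and surgery, tamoxifen, pooling and library preparation cannot be told apart. No test was made, and every interval given is a 95% interval for counting error only.

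Thyroxine (T4), the main hormone released by the thyroid, becomes the more active T3 when a deiodinase removes an iodine from its outer ring, and Dio2 encodes the deiodinase that does so inside BAs. T3 binds the nuclear receptors encoded by Thra and Thrb, which sit on DNA mostly as heterodimers with a retinoid X receptor such as the product of Rxrg. Tshr encodes the receptor for thyroid-stimulating hormone (TSH), a receptor that raises cAMP, and Trhde encodes the ectoenzyme that degrades thyrotropin-releasing hormone (TRH), the hypothalamic signal for TSH. In BAT, sympathetic noradrenaline raises cAMP and induces Dio2, and locally made T3 supports thermogenesis.

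On GRCm38, Dio2 lies on the minus strand at chr12:90724552-90738438 and Trhde on the minus strand at chr10:114398823-114802307. The other members lie on the plus strand: Thra at chr11:98740638-98769006, Thrb at chr14:17660261-18038090, Rxrg at chr1:167598384-167639623 and Tshr at chr12:91384563-91549808. Thra overlaps Nr1d1, a circadian repressor gene on the opposite strand, by 1075 bases, and whether reads were counted by strand is not given in the sources used here. Antisense genes also overlap Thrb and Trhde, so reads there may be shared. The isoforms of Thra and Thrb, some of which do not bind T3, share 1 row each and were not separated.

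Promoter windows in RefSeq (GRCm38.p6, from 250 bases before to 50 after a gene's start) were found for 4 of the 6 members, Dio2, Thrb, Rxrg and Trhde. The RefSeq start of Dio2 lies upstream of the gene span given above, so that its window is wholly outside that span. The windows of Dio2 and Trhde are shown because these members took opposite sides of the comparison between adipocyte types. The first is chr12:90738989-90739288 and the second chr10:114802253-114802552, both read 5′ to 3′ on the minus strand, with the full cAMP response element TGACGTCA in capitals.
Dio2: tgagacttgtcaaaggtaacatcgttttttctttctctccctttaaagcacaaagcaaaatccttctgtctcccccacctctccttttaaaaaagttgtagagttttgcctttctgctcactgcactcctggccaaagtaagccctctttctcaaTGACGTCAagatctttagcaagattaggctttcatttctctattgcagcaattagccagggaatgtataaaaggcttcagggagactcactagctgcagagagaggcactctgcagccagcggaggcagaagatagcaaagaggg
Trhde: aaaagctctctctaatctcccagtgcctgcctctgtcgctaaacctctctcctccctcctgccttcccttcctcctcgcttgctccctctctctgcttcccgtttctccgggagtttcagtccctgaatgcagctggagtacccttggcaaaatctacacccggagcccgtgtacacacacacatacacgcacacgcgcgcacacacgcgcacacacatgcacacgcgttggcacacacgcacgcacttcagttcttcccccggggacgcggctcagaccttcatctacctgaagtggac
The Dio2 window holds 1 full element, a motif found on either strand in 1.79% of the 32851 windows of this length. The shorter motif TGACG, found in 20.8% of windows, matched the Dio2 window only inside the full element. The Trhde window holds neither, nor the nuclear receptor motif AGGTCA that 16.3% of windows hold, while 1 of the Thrb windows and 1 of the Rxrg windows hold AGGTCA. A match describes letters only, and binding was not measured.

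The untreated, sham and denervated tables list 13707, 15368 and 15822 barcodes with 14971579, 14725864 and 9420030 UMIs. Of these, 11076, 12684 and 9917 nuclei were kept, with medians of 966, 753 and 687 UMIs. Mitochondrial genes took 6.71%, 12.9% and 2.95% of all UMIs, and the part of this difference in the values of the sham library was not tested. Between 251 and 278 barcode indices occurred in both libraries of a pair. Nuclei were clustered in each library without the 6 members, and clusters were named from marker genes. BA-like nuclei numbered 4599, 3469 and 4934 in the untreated, sham and denervated libraries, white adipocyte-like nuclei 138, 900 and 1002, and endothelial cell (EC)-like nuclei 5452, 5852 and 2750. All 9 brown adipocyte markers had UMIs in the BA-like pool of every library, but also in the white adipocyte-like and EC-like pools. In the BA-like pools their summed level, in UMIs per 1000000 UMIs of the pool (CPM), was 14572, 11177 and 16656. These markers include genes of adipocytes in general, and in white adipocyte-like nuclei they summed to 12220, 9840.5 and 7370.3 CPM, so that the list as a whole set the 2 adipocyte classes less apart than the uncoupling protein Ucp1, which is not on it. Ucp1 stood at 347, 402 and 312 CPM in BA-like and at 65.7, 124 and 79.7 CPM in white adipocyte-like nuclei. The white adipocyte-like class was read with care, because it held only 138 nuclei in the untreated library. In the sham library, 795 of its 900 nuclei form a sub-cluster led by stress and muscle genes such as Thbs1 and Acta1 with no white marker among its leading genes, so that class was not compared between the sham and the other libraries.

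Dio2 was largely a gene of BA-like nuclei. They held 97.4% of its UMIs in kept nuclei of the untreated library, 87.6% in the sham and 86.8% in the denervated library. Its level in BA-like nuclei was 22.1 CPM (19.1 to 25.5, from 186 UMIs) in the untreated library, 23.7 CPM (19.6 to 28.5, from 113 UMIs) in the sham library and 38.1 CPM (32.9 to 43.9, from 190 UMIs) in the denervated library. The intervals of the untreated and sham libraries overlap, and that of the denervated library lies above both.

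In EC-like nuclei Dio2 stood at 0.524 CPM in the untreated and 0.545 CPM in the sham library, from 2 UMIs each, and at 13.3 CPM in the denervated library, from 19 UMIs. BA-like nuclei thus exceeded EC-like nuclei by a log2 ratio of 5.40 (3.53 to 8.46) in the untreated, 5.45 (3.56 to 8.51) in the sham and 1.52 (0.84 to 2.28) in the denervated library. The denervated ratio was the lowest, and the RNA found in denervated EC-like nuclei is described further on. Pericyte-like nuclei held 1 Dio2 UMI in the untreated library and 4 in each of the others. No Dio2 UMI was found in immune-like nuclei of any library, nor in the 137 Schwann-like and 55 fibroblast-like nuclei of the sham library. The intervals reach 58.1, 45.7 and 23.2 CPM for immune-like nuclei, 40.5 CPM for Schwann-like and 83.8 CPM for fibroblast-like ones. All but the denervated one reach past the BA-like level of the library. Smooth muscle-like nuclei held 1 UMI in the untreated and 3 in the sham library, and 30 untreated fibroblast-like nuclei held 1. These intervals also reach past the BA-like level.

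A Dio2 UMI was found in 3.35% of untreated BA-like nuclei (2.85 to 3.91), in 2.74% of sham ones (2.22 to 3.34) and in 3.14% of denervated ones (2.67 to 3.67). The matching shares of EC-like nuclei were 0.0367%, 0.0342% and 0.509%. Median depth was 1821, 1365 and 896 UMIs in the BA-like nuclei, and 668.5, 522.5 and 401 UMIs in the EC-like nuclei. After each nucleus was thinned to 800 UMIs, which left out 364, 559 and 1998 shallower BA-like nuclei, the shares in BA-like nuclei were 1.58%, 1.75% and 3.03%. The order of the thinned shares is that of the CPM. Dio2 was thus a rare transcript in nuclei, with 30, 14 and 28 BA-like nuclei of the untreated, sham and denervated libraries holding 2 or more of its UMIs.

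The denervated BA-like pool exceeded the untreated one in Dio2 by a log2 ratio of 0.78 (0.49 to 1.08), a fold of 1.72. Against the sham pool the log2 ratio was 0.68 (0.34 to 1.03), and sham against untreated gave 0.10 (-0.25 to 0.45). The first 2 ratios share the denervated library. Of 11894 genes with at least 50 UMIs over the denervated and untreated pools, 92.9% had a lower ratio than Dio2, and of 11228 genes in the comparison with sham, 80.7% had. Dio2 thus did not reach the 2-fold difference used here to call a gene, and ratios of its size were not rare among genes with at least 50 UMIs. Many of these genes have fewer UMIs than Dio2. Genes at least 2-fold higher against untreated were 3.99% with at least 50 UMIs and 1.25% with at least 200, and against sham 11.5% and 7.37%. The rank of Dio2 among genes of like counts was not taken.

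Dio2 was also followed over depth. In 3 equal groups of BA-like nuclei by UMIs, from shallow to deep, Dio2 stood at 27.3, 19.9 and 21.7 CPM in the untreated, at 15.7, 20.3 and 29.2 CPM in the sham and at 25.3, 39.5 and 41.9 CPM in the denervated library. The denervated value was the highest in the middle and deep groups, and in the shallow group it was below the untreated one. The groups were cut within each library, so each covers other depths in another library.

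Beside Dio2, 5 genes known to answer to noradrenaline or cAMP in BAs or to act in that pathway were read singly. Ucp1 was lower in the denervated than in the untreated BA-like pool by a log2 ratio of -0.15 (-0.24 to -0.06). This was not seen in sub-cluster 1, the largest of each library. There Ucp1 stood at 362 CPM (348 to 376) in the untreated and 381 CPM (359 to 404) in the denervated library. In the sub-clusters led by heat shock genes it stood at 247 CPM (213 to 284) and 119 CPM (96.1 to 145). Between the whole denervated and untreated pools, Ppargc1a, the coactivator of mitochondrial biogenesis, gave 0.04 (-0.05 to 0.14). Adrb3, the beta-3 adrenergic receptor, gave 0.07 (0.00 to 0.13). The orphan receptor Nr4a1, an immediate early gene, gave 0.66 (0.47 to 0.84), and the cAMP phosphodiesterase Pde4d 0.46 (0.41 to 0.50). Nr4a1 was among the leading genes of the heat shock-led untreated sub-cluster 2 and of sham sub-cluster 2, which carries immediate early genes. Heat shock-led sub-clusters held 664 of the 4599 untreated and 1210 of the 4934 denervated BA-like nuclei. The part of such nuclei in the ratios of Nr4a1 was not tested. Against the sham pool, the ratio of Ucp1 was -0.36 (-0.46 to -0.27), that of Ppargc1a 0.64 (0.52 to 0.76), that of Adrb3 -1.53 (-1.59 to -1.47), that of Nr4a1 -0.40 (-0.58 to -0.22) and that of Pde4d 1.35 (1.29 to 1.42). None of the 5 was called against untreated, where 3.99% of all genes were higher and 1.3% lower, and against sham Adrb3 was called lower and Pde4d higher, where 8.51% of all genes were lower and 11.5% higher.

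**Figure D1:**
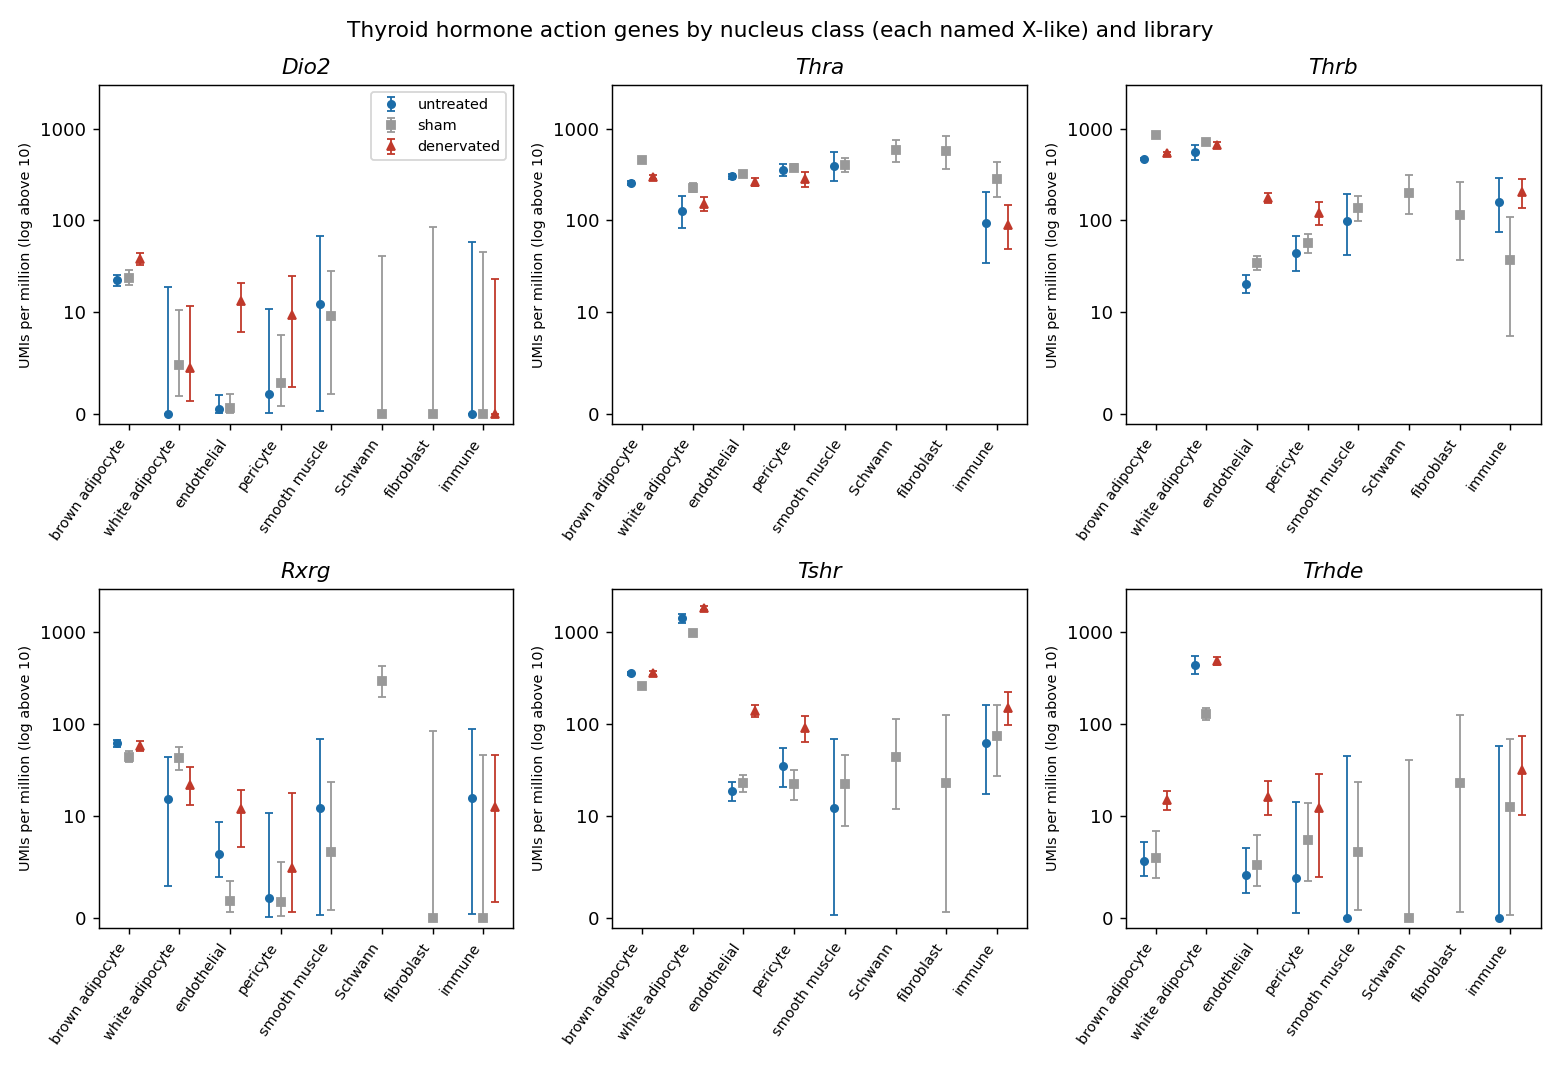
UMIs per 1000000 UMIs (y axis, linear below 10 and logarithmic above) of the 6 members in nucleus classes of at least 50 nuclei (x axis), in the untreated (circles), sham (squares) and denervated (triangles) libraries, with exact Poisson 95% intervals for counting error. Dio2 is highest in BA-like nuclei of each library at 22.1, 23.7 and 38.1 CPM, Tshr and Trhde are highest in white adipocyte-like nuclei, and Thrb and Tshr of EC-like nuclei stand higher in the denervated library, at 175 and 139 CPM, than in the other two.

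Thra, which encodes the T3 receptor found in most tissues, had UMIs in every named class. In BA-like nuclei it stood at 257 CPM (246 to 268) in the untreated, 454 CPM (435 to 474) in the sham and 295 CPM (280 to 310) in the denervated library. EC-like nuclei held 303, 322 and 263 CPM and pericyte-like nuclei 353, 374 and 279.8 CPM in the same order of libraries. Among the untreated named classes of at least 50 nuclei, the order ran from smooth muscle-like at 392.1 CPM (268 to 553) over pericyte-like, EC-like and BA-like to white adipocyte-like nuclei at 126 CPM (81.7 to 186) and immune-like nuclei at 94.5 CPM (34.7 to 206). Neighbours in this order overlap except EC-like with BA-like and BA-like with white adipocyte-like nuclei. Classes of 30 untreated nuclei each held 527 CPM (281 to 901, Schwann-like, from 13 UMIs) and 399.5 CPM (199 to 715, fibroblast-like, from 11 UMIs), intervals that overlap with the smooth muscle-like one. In the sham library the highest levels were those of Schwann-like nuclei at 582 CPM (436 to 761) and of fibroblast-like nuclei at 568 CPM (367 to 838), which overlap with each other and with the BA-like interval.

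Thrb, the T3 receptor gene with a narrower range of tissues, was a gene of adipocyte nuclei here. BA-like nuclei held 469 CPM (455 to 484) in the untreated, 849 CPM (823 to 876) in the sham and 539.7 CPM (519 to 560.5) in the denervated library. White adipocyte-like nuclei held 555 CPM (457 to 670), 713 CPM (667 to 762) and 668 CPM (615 to 725). EC-like nuclei held 20.4 CPM in the untreated, 34.3 CPM in the sham and 175 CPM in the denervated library. The BA-like level was 23.0-fold the EC-like level in the untreated, 24.7-fold in the sham and 3.08-fold in the denervated library.

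Both receptors were highest in the sham BA-like pool. Sham exceeded untreated by a log2 ratio of 0.82 (0.74 to 0.91) for Thra and 0.86 (0.79 to 0.92) for Thrb. Denervated exceeded untreated by 0.20 (0.10 to 0.29) for Thra and by 0.20 (0.13 to 0.27) for Thrb, while against sham the ratios were -0.62 (-0.72 to -0.53) and -0.65 (-0.73 to -0.58). None of these reached 2-fold. The untreated and sham libraries, neither labelled as denervated, thus differed more in these receptors than the denervated and untreated libraries did. Nr1d1, whose reads may be shared with Thra, stood at 99.2, 182 and 66.6 CPM in untreated, sham and denervated BA-like nuclei. Its log2 ratio was 0.87 for sham over untreated and -0.57 for denervated over untreated.

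Rxrg, the retinoid X receptor partner among the members, was highest in BA-like nuclei among the named classes of at least 50 nuclei in the untreated and denervated libraries. An unnamed untreated sub-cluster of 67 adipocyte nuclei, led by genes such as Sema6a and Meox2, held 71.1 CPM (30.7 to 140.1, from 8 UMIs), an interval that overlaps with the BA-like one. The BA-like level of Rxrg was 61.6 CPM (56.4 to 67.2) in the untreated, 44.1 CPM (38.4 to 50.5) in the sham and 57.8 CPM (51.3 to 64.9) in the denervated library. EC-like nuclei held 6.29, 1.63 and 11.9 CPM. Denervated against untreated gave a log2 ratio of -0.09 (-0.31 to 0.12), denervated against sham 0.39 (0.13 to 0.65) and sham against untreated -0.48 (-0.72 to -0.25).

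Among sham classes of at least 50 nuclei, the highest Rxrg level was that of Schwann-like nuclei, the glia of peripheral nerves. Their 137 nuclei held 27 Rxrg UMIs, 297 CPM (195 to 431), and 15.3% of them (9.75 to 22.5) had a UMI against 5.22% of BA-like and 0.0854% of EC-like nuclei at medians of 517, 1365 and 522.5 UMIs. The Schwann-like level exceeded the BA-like one by a log2 ratio of 2.75 (2.11 to 3.33), or 6.72-fold. Of all genes compared between these classes, 15.9% were at least 2-fold higher and 31.7% lower in Schwann-like nuclei. Thrb and Tshr were lower in Schwann-like than in BA-like nuclei, by log2 ratios of -2.10 (-2.86 to -1.44) and -2.57 (-4.45 to -1.21). Against EC-like nuclei, where 15.9% of genes were higher and 25.7% lower, the Schwann-like log2 ratio of Thrb was 2.53 (1.73 to 3.24), from 18 UMIs in 9 nuclei. Ambient RNA, free RNA with the profile of the whole library, was estimated at 40.0% of Schwann-like UMIs against 15.6% in EC-like and 8.32% in BA-like nuclei, and after its subtraction Thrb stood at 57.9 CPM and Rxrg at 478.5 CPM in Schwann-like nuclei. The 30 Schwann-like nuclei of the untreated library held 7 Rxrg UMIs, 284 CPM (114 to 585), an interval above that of untreated BA-like nuclei. No class of the denervated library was named Schwann-like. A class of 122 denervated nuclei led by both fibroblast and Schwann cell genes stayed unnamed and held 4 Rxrg UMIs. The other retinoid X receptor genes, Rxra and Rxrb, stood in BA-like nuclei at 16.5 and 60.2 CPM in the untreated, 19.3 and 80.7 CPM in the sham and 13.04 and 56.4 CPM in the denervated library.

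Tshr was measured in both adipocyte classes and was highest in the white one. White adipocyte-like nuclei held 1429 CPM (1267 to 1606) in the untreated, 981 CPM (927 to 1037) in the sham and 1848 CPM (1759 to 1940.4) in the denervated library. BA-like nuclei held 359 CPM (347 to 372), 261 CPM (247 to 276) and 363 CPM (346 to 379.7). The intervals of the 2 adipocyte classes lie apart in each library. EC-like nuclei held 18.6 and 22.6 CPM in the untreated and sham libraries and 139 CPM in the denervated library. A Tshr UMI was found in 65.9%, 56.4% and 62.1% of white adipocyte-like nuclei, in 35.0%, 22.0% and 23.8% of BA-like nuclei and in 1.16%, 1.16% and 4.58% of EC-like nuclei. After thinning to 800 UMIs, the shares were 58.0%, 45.7% and 64.0% in white adipocyte-like and 20.4%, 15.98% and 21.3% in BA-like nuclei.

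Trhde was a gene of white adipocyte-like nuclei. It stood there at 444 CPM (356 to 547) in the untreated, 130.02 CPM (111 to 152) in the sham and 487 CPM (442 to 536) in the denervated library. These nuclei held 55.7%, 71.7% and 79.6% of its UMIs in kept nuclei. BA-like nuclei held 5.59 CPM (4.11 to 7.44), 5.88 CPM (3.91 to 8.50) and 14.8 CPM (11.7 to 18.6), and EC-like nuclei 4.19 CPM (2.40 to 6.81), 5.18 CPM (3.12 to 8.08) and 16.1 CPM (10.2 to 24.2). The BA-like and EC-like intervals overlap in each library, and the log2 ratios of BA-like to EC-like nuclei were 0.42 (-0.43 to 1.33), 0.18 (-0.71 to 1.11) and -0.12 (-0.81 to 0.63). Under other choices these ratios ran from 0.32 to 1.74 in the untreated, from -0.44 to 2.22 in the sham and from -0.16 to 2.35 in the denervated library, each highest where nuclei were classed by their own markers. A Trhde UMI was found in 37.0%, 13.4% and 25.6% of white adipocyte-like nuclei, against 1.0%, 0.807% and 1.42% of BA-like nuclei. Of the white adipocyte-like nuclei with a Trhde UMI, 82.4%, 66.9% and 69.3% also had a Tshr UMI, against 65.9%, 56.4% and 62.1% of all white adipocyte-like nuclei, with no correction for depth.

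Within each library, white adipocyte-like nuclei exceeded BA-like nuclei in Tshr by a log2 ratio of 1.99 (1.81 to 2.17) in the untreated, 1.91 (1.79 to 2.02) in the sham and 2.35 (2.25 to 2.45) in the denervated library. These are folds of 3.98, 3.75 and 5.10. For Trhde the log2 ratios were 6.31 (5.79 to 6.86), 4.47 (3.88 to 5.10) and 5.04 (4.68 to 5.41), or folds of 79.5, 22.1 and 32.8. Among all genes compared, 9.19%, 6.76% and 8.77% were at least 2-fold higher in white adipocyte-like nuclei. Tshr and Trhde were the 2 members of the 6 above that mark in each library.

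Dio2 went the other way. The untreated white adipocyte-like nuclei held no Dio2 UMI. Taken at a floor of 3 UMIs, or 15.1 CPM, their level was 1.46-fold lower than in BA-like nuclei. The exact interval reaches further, to 18.6 CPM, and that of the log2 ratio to -0.23. In the sham library the Dio2 level was 4.82 CPM (1.77 to 10.5, from 6 UMIs), a log2 ratio of -2.30 to BA-like nuclei, and in the denervated library 4.56 CPM (1.24 to 11.7, from 4 UMIs), a log2 ratio of -3.06 (-4.96 to -1.69). Thra was lower in white adipocyte-like nuclei by log2 ratios of -1.02 (-1.66 to -0.46), -1.0005 (-1.18 to -0.82) and -0.95 (-1.22 to -0.69). The sham white adipocyte-like nuclei were not alike in this, with -1.10 (-1.31 to -0.91) in the stress and muscle gene-led sub-cluster 3 and -0.45 (-0.87 to -0.07) in sub-cluster 6, which is richer in white adipocyte markers. Thrb gave 0.24 (-0.04 to 0.52), -0.25 and 0.31 in the 3 libraries, and the untreated value was -0.10 with median-of-ratios size factors. Among the sham nuclei it gave -0.18 (-0.29 to -0.07) in sub-cluster 3 and -0.88 (-1.23 to -0.55) in sub-cluster 6. Rxrg was lower in the untreated library, at -2.02 (-4.31 to -0.47) from 3 UMIs, and in the denervated library, at -1.42, while the sham value was -0.05. At least 2-fold lower were 3 members in the untreated library (Dio2, Thra and Rxrg), 2 in the sham library (Dio2 and, just past the mark and only in sub-cluster 3, Thra) and 2 in the denervated library (Dio2 and Rxrg), against 28.8%, 14% and 23.7% of all genes. The untreated count takes Dio2 at 0 UMIs as lower, and without it, since its bound is under 2-fold, it is 2.

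The heat shock gene Hspa1a was higher in the white adipocyte-like than in the BA-like pool of each library. In white adipocyte-like nuclei it stood at 2242, 3144 and 1467 CPM in the untreated, sham and denervated libraries. In BA-like nuclei it stood at 449, 564 and 520.4 CPM. When BA-like sub-clusters that carry heat shock or immediate early genes were used instead, with 3435, 2197 and 2197 CPM of Hspa1a, the log2 ratio of Tshr was 2.11 in the untreated and 2.10 in the denervated library, and that of Trhde was 6.13 and 4.91. In the sham library, white adipocyte-like sub-cluster 3 of 795 nuclei gave 1.60 for Tshr and 3.31 for Trhde against such nuclei. Sub-cluster 6 of 105 nuclei, which holds 6785 CPM of white adipocyte markers against 1479 CPM in sub-cluster 3, gave 1.97 and 3.45. Its Hspa1a level was 577 CPM, below that reference and near the 564 CPM of the whole BA-like pool. Against the whole pool, sub-cluster 6 gave 2.23 for Tshr and 4.59 for Trhde. Sub-cluster 3 also held 176 CPM of skeletal muscle markers and sub-cluster 6 18.4 CPM. Tshr stood at 945 CPM (888 to 1004) in sub-cluster 3 and 1222 CPM (1058 to 1404) in sub-cluster 6, and Trhde at 128 CPM (108 to 152) and 141 CPM (89.5 to 212).

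Denervated and untreated white adipocyte-like nuclei were also set against each other, with the untreated side resting on 138 nuclei. Tshr gave a log2 ratio of 0.37 (0.19 to 0.56), Trhde 0.13 (-0.20 to 0.48), Thrb 0.27 (-0.03 to 0.57), Thra 0.27 (-0.35 to 0.95) and Rxrg 0.51 (-1.25 to 2.91). None of the 4 members with at least 50 UMIs over both pools, which leaves out Dio2 and Rxrg, reached 2-fold, where 8.83% of 3977 genes were higher and 3.44% lower by that much. The interval of Tshr alone among these lies apart from 0.

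**Figure D2:**
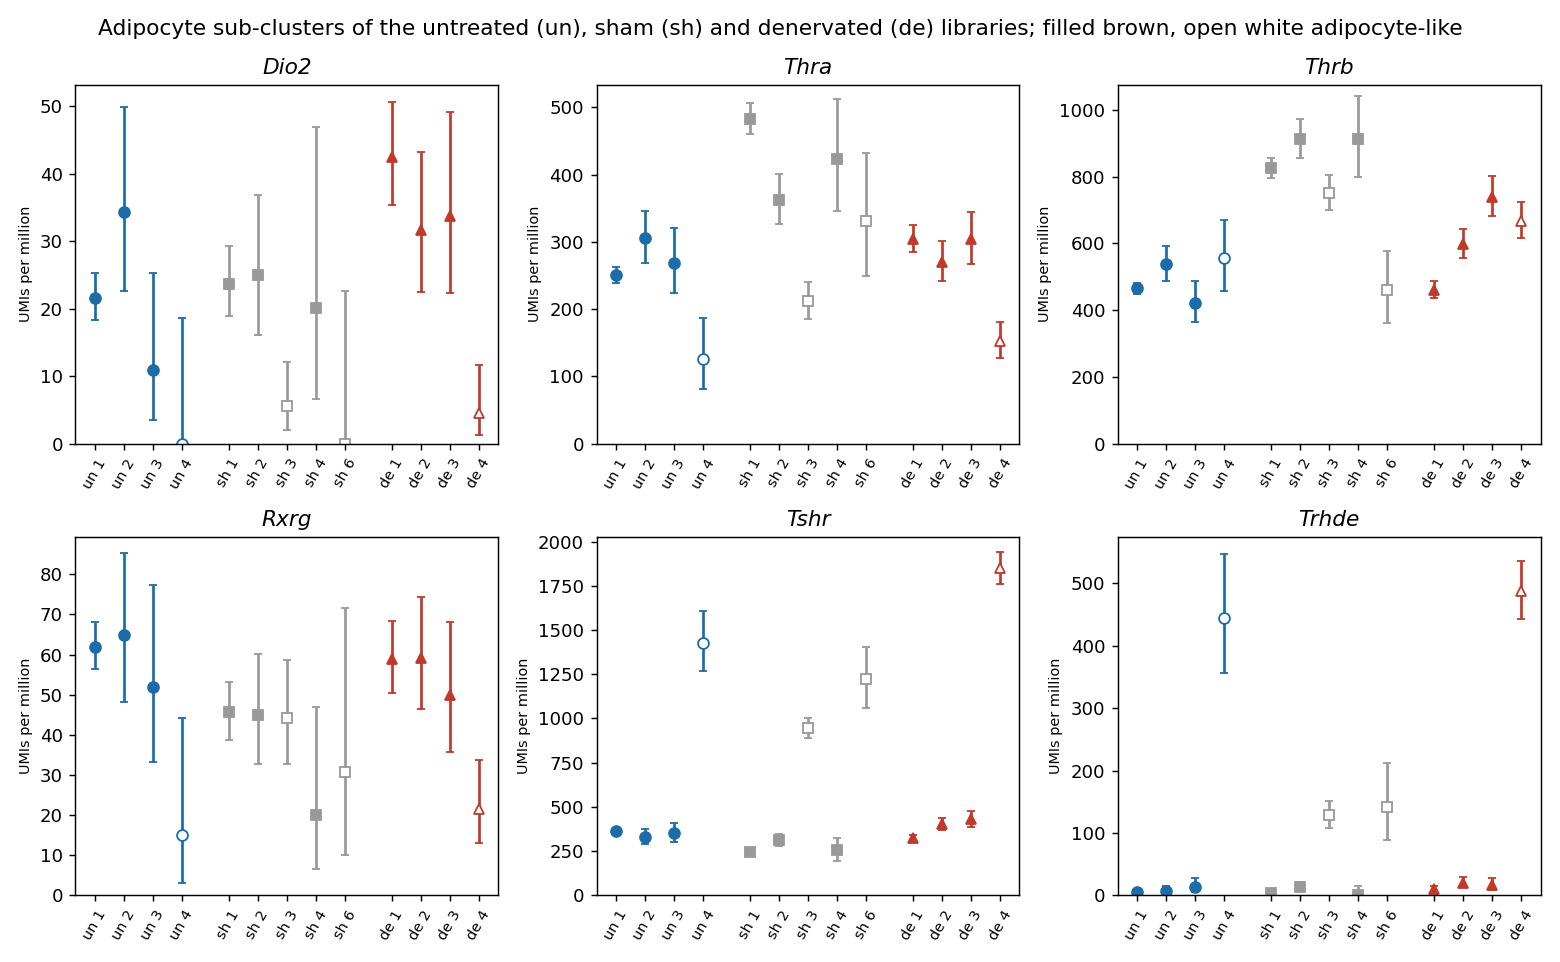
UMIs per 1000000 UMIs (y axis, linear, each panel on its own scale) of the members in each adipocyte sub-cluster (x axis) of the untreated (un), sham (sh) and denervated (de) libraries, filled for BA-like and open for white adipocyte-like sub-clusters, with exact Poisson 95% intervals. Every open point lies above the filled points of its library for Tshr and Trhde, and below those for Dio2, where the white adipocyte-like values are 0 to 5.54 CPM.

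BA-like nuclei fell into 3 main sub-clusters in each library. Dio2 stood at 21.6, 34.3 and 10.8 CPM in untreated sub-clusters 1, 2 and 3, of 3375, 664 and 546 nuclei, where sub-cluster 2 is led by heat shock genes and sub-cluster 3 holds mitochondrial genes and shallow nuclei. The intervals of sub-clusters 2 and 3, at 22.6 to 49.96 and 3.52 to 25.3 CPM, overlap. In the sham library Dio2 stood at 23.7, 24.9 and 20.1 CPM in sub-clusters 1, 2 and 4. In the denervated library it stood at 42.5, 31.6 and 33.8 CPM in sub-clusters 1, 2 and 3, the last led by heat shock genes. In sub-cluster 1, the largest of each library, the denervated value lies above the untreated and sham values with intervals apart. In the sub-clusters led by heat shock genes it does not, with 34.3 CPM (22.6 to 49.96) in the untreated and 33.8 CPM (22.3 to 49.1) in the denervated library. A range of at least 2-fold over these sub-clusters was counted for Dio2 and Trhde in the untreated, for Trhde and Rxrg in the sham and for 0 members in the denervated library, where 31.1%, 33% and 25.4% of all genes with at least 20 UMIs had one. Among genes with at least 50 UMIs, which leaves out Trhde in the untreated and sham libraries, 23.2%, 24.4% and 18% had one. Nothing is read from these counts of 2, 2 and 0 of 6 members, whose lowest levels rest on 5 UMIs for Dio2, on 5 for Rxrg and on 36 and 0 for untreated and sham Trhde.

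Thrb varied among BA-like sub-clusters of the denervated library, from 461 CPM (437 to 487) in sub-cluster 1 over 598 CPM (555 to 642) in sub-cluster 2 to 740.4 CPM (682 to 803) in the heat shock-led sub-cluster 3. The untreated values were 465, 538 and 423 CPM and the sham values 827, 913 and 914 CPM. The denervated and untreated values of sub-cluster 1 overlap, so the small ratio of the whole pools was not seen there. Tshr stood at 323, 403 and 430.2 CPM in the same denervated sub-clusters, against 363, 332 and 351 CPM in the untreated and 247, 312 and 254 CPM in the sham library. Thra ran from 251 to 305 CPM in the untreated, 362 to 483 CPM in the sham and 270.0 to 304 CPM in the denervated sub-clusters. Rxrg ran from 52.0 to 64.9, 20.1 to 45.6 and 50.03 to 59.2 CPM with intervals that overlap within each library.

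In Tshr the untreated and denervated BA-like pools were close, with a log2 ratio of 0.01 (-0.07 to 0.10), and sham was below both, at -0.46 (-0.56 to -0.36) to untreated. Denervated against sham gave 0.47 (0.37 to 0.58). Trhde was the 1 member called between BA-like pools, at 1.41 (0.86 to 1.97) for denervated over untreated and 1.34 (0.69 to 2.02) for denervated over sham. Of all genes, 3.99% were at least 2-fold higher and 1.3% lower in the denervated than in the untreated pool, and 11.5% higher and 8.51% lower than in the sham pool. Slc7a10, which the study uses as a marker of white adipocytes, stood at 2.38, 21.01 and 13.8 CPM in untreated, sham and denervated BA-like nuclei. In white adipocyte-like nuclei it stood at 611, 567 and 707 CPM. Slc7a10 is also on the marker list used here to name white adipocyte-like nuclei, so its levels in the 2 classes are partly set by the naming. Like Trhde, Slc7a10 was thus higher in the denervated than in the untreated BA-like pool. Unlike Trhde, it was highest in the sham pool. The part of white adipocyte RNA in the Trhde ratios was not tested. Over the main BA-like sub-clusters, Trhde stood at 5.05, 6.36 and 13.01 CPM in untreated sub-clusters 1, 2 and 3, and at 10.6, 20.3 and 16.3 CPM in denervated ones. Sham sub-clusters 1 and 2 held 4.27 and 12.97 CPM, and sub-cluster 4 held no UMI, with an interval up to 14.9 CPM. Intervals of sub-cluster 1 lay apart between the denervated (7.21 to 15.1) and the other libraries (3.54 to 6.99 in the untreated, 2.39 to 7.05 in the sham), while untreated sub-cluster 3 and sham sub-cluster 2, with 6 and 13 UMIs, reached the denervated levels. In the EC-like pools the Trhde ratio of denervated over untreated was 1.94 (0.96 to 2.96), from 23 and 16 UMIs. With ambient RNA subtracted, the denervated EC-like level came to 0 CPM and the untreated one to 2.77 CPM, while the BA-like levels were 11.1 and 5.19 CPM.

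**Figure D3:**
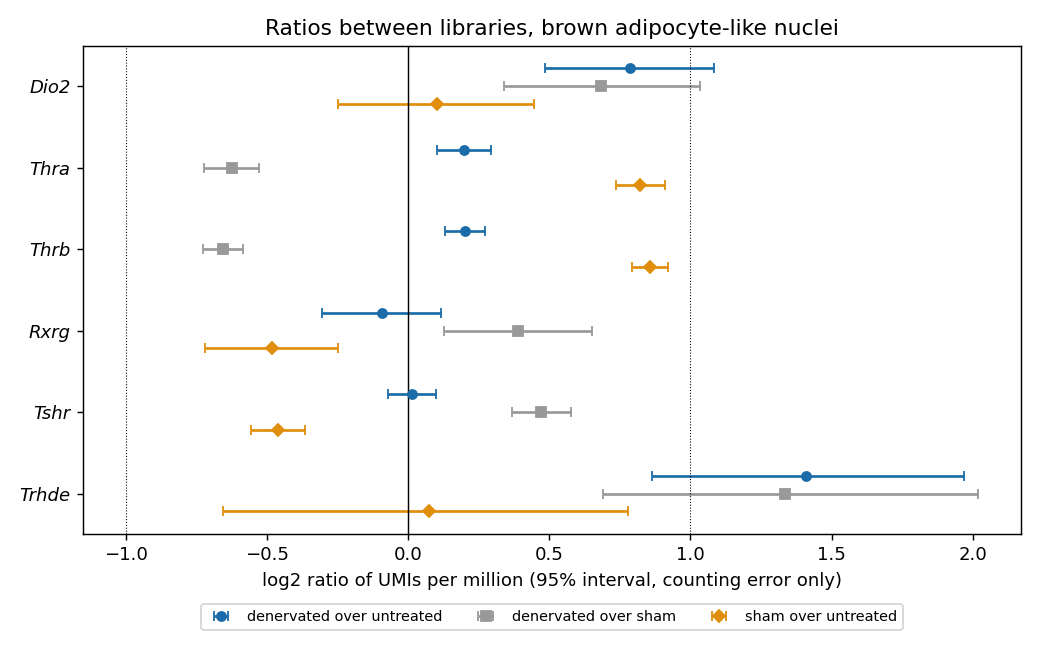
Log2 ratios of UMIs per 1000000 UMIs between the BA-like pools of 2 libraries (x axis) for the 6 members (y axis), denervated over untreated (circles), denervated over sham (squares) and sham over untreated (diamonds), with exact 95% intervals and dotted lines at 2-fold. Dio2 lies at 0.78, 0.68 and 0.10, Thra and Thrb lie above 0 for sham over untreated, and Trhde passes the dotted line with both denervated comparisons.

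UMIs of the brown adipocyte marker list were found in EC-like nuclei, at the highest level in the denervated library. The list includes Pparg and Acaca, which were left out where adipocyte and endothelial markers were taken as exclusive to find doublets. How much of this sum is adipocyte RNA was not tested, which also holds for the values per 1000 marker UMIs below. The 9 brown adipocyte markers summed to 1987, 1653 and 5534 CPM in EC-like nuclei of the untreated, sham and denervated libraries, where ambient RNA was estimated at 16.1%, 15.6% and 45.7% of UMIs. Thrb and Tshr were at least 2-fold higher in denervated than in untreated EC-like nuclei, by log2 ratios of 3.10 (2.73 to 3.48) and 2.91 (2.51 to 3.32), where 9.35% of all genes were higher and 2.22% lower by that much. Against sham EC-like nuclei they were higher by 2.35 and 2.62, where 11.6% of genes were higher and 5.88% lower. Between sham and untreated EC-like nuclei, where 3.53% of genes were higher and 2.88% lower, they gave 0.75 and 0.28. For each 1000 UMIs of these markers, denervated EC-like nuclei held 2.40 UMIs of Dio2, 31.6 of Thrb and 25.2 of Tshr, and denervated BA-like nuclei 2.29, 32.4 and 21.8. The intervals of the 2 classes overlap for all 3 genes. In the untreated library the EC-like values were 0.264, 10.3 and 9.36 and the BA-like values 1.52, 32.2 and 24.7. Thra stood apart, at 47.6 in denervated EC-like and 17.7 in BA-like nuclei. When RNA with the profile of the whole library was subtracted, Thrb, Tshr and Rxrg came to 0 CPM in EC-like nuclei of all 3 libraries and Thra to 309, 316 and 265 CPM. Under other choices of nuclei and clusters, the denervated log2 ratio of BA-like to EC-like nuclei ran from 1.02 to 5.11 for Dio2, from 1.01 to 4.28 for Thrb and from 0.54 to 3.84 for Tshr. Of the 6 members, 4 were at least 2-fold higher in BA-like than in EC-like nuclei of each library (Dio2, Thrb, Rxrg and Tshr), against 27.3%, 25.4% and 17.5% of all genes.

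Beside the members, lists of 48 pathway genes were drawn up. The tables list 47 of them, all but Trh, and 37 had at least 50 UMIs in the BA-like pools compared. Between denervated and untreated BA-like nuclei, 0 were at least 2-fold higher and 0 lower, against 3.99% and 1.3% of all genes, with a median log2 ratio of -0.03 against 0.00 over all genes. Against sham, 10 were higher and 3 lower, against 11.5% and 8.51% of all genes, with a median of 0.40 against 0.03, and sham against untreated had 2 higher and 9 lower with a median of -0.32. Over all genes, 7.83% were higher and 8.78% lower by this much in the sham than in the untreated pool, with a median of -0.04.

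Of the transporters that bring thyroid hormone into cells, Slc16a10, which encodes MCT10, stood at 313, 231 and 266 CPM in the untreated, sham and denervated BA-like pools. Slc7a8, an amino acid transporter that also carries thyroid hormone, stood at 4.76, 15.97 and 4.01 CPM, from 40, 76 and 20 UMIs, with a log2 ratio of 1.75 for sham over untreated and -1.99 for denervated over sham. Of the other deiodinases, Dio1 had 8, 0 and 12 UMIs in the BA-like pools and Dio3 0, 5 and 0. None of the 5 genes of DIO2 ubiquitin control, which set how long the enzyme lasts, was called between BA-like pools. The same held for Rxra and Rxrb and for the 3 genes of the TRH and TSH axis with enough UMIs, Gnas, Adcy3 and Creb1, which carry a receptor's signal to cAMP and on to transcription.

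Among 8 coregulators, 2 were higher in denervated than in sham BA-like nuclei, against 11.5% of all genes. Ncoa1, a coactivator of nuclear receptors, gave a log2 ratio of 1.05 (0.96 to 1.15), and Tbl1xr1, a subunit of the corepressor complex, 1.003 (0.74 to 1.27). Against the untreated pool they gave 0.11 and 0.68. Neither was called there.

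The 16 genes of the T3-responsive list split by library. Between denervated and untreated BA-like nuclei, 0 of the 16 were called, where 3.99% of all genes were higher and 1.3% lower, with a median log2 ratio of -0.16 against 0.00 over all genes. Against sham, 8 were higher and 2 lower with a median of 0.95, and in sham against untreated 1 was higher and 9 were lower with a median of -1.37. Among all genes, 11.5% were higher and 8.51% lower in the denervated than in the sham pool, with a median of 0.03, and 7.83% were higher and 8.78% lower in the sham than in the untreated pool, with a median of -0.04. Me1, the NADP-dependent malic enzyme, stood at 945, 205 and 707 CPM in the untreated, sham and denervated pools. Scd1, the desaturase that makes monounsaturated fatty acids, stood at 14045, 3980.4 and 15612 CPM, and Srebf1, which encodes the transcription factor SREBP1, at 659, 200.2 and 680.3 CPM. Hr, a corepressor gene induced by T3, stood at 15.9, 3.78 and 15.4 CPM. Fasn and Acaca, which with Me1, Scd1 and Srebf1 serve fatty acid synthesis, gave -1.88 and -1.43 for sham over untreated. These genes are known to answer to insulin as well as to T3.

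Others on the list behaved differently. Klf9, a transcription factor gene with a T3 response element, was highest in the sham pool at 140.1 CPM, against 92.3 CPM in the untreated and 64.4 CPM in the denervated pool. Its log2 ratio was -0.52 (-0.71 to -0.33) for denervated over untreated. Adrb3 stood at 580.3, 1758 and 609 CPM, the 1 gene of the list at least 2-fold higher in sham than in untreated. Thrsp, the Spot 14 gene of lipogenesis, stood at 2018, 1264 and 1392 CPM, with -0.54 (-0.58 to -0.50) for denervated over untreated.

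**Figure D4:**
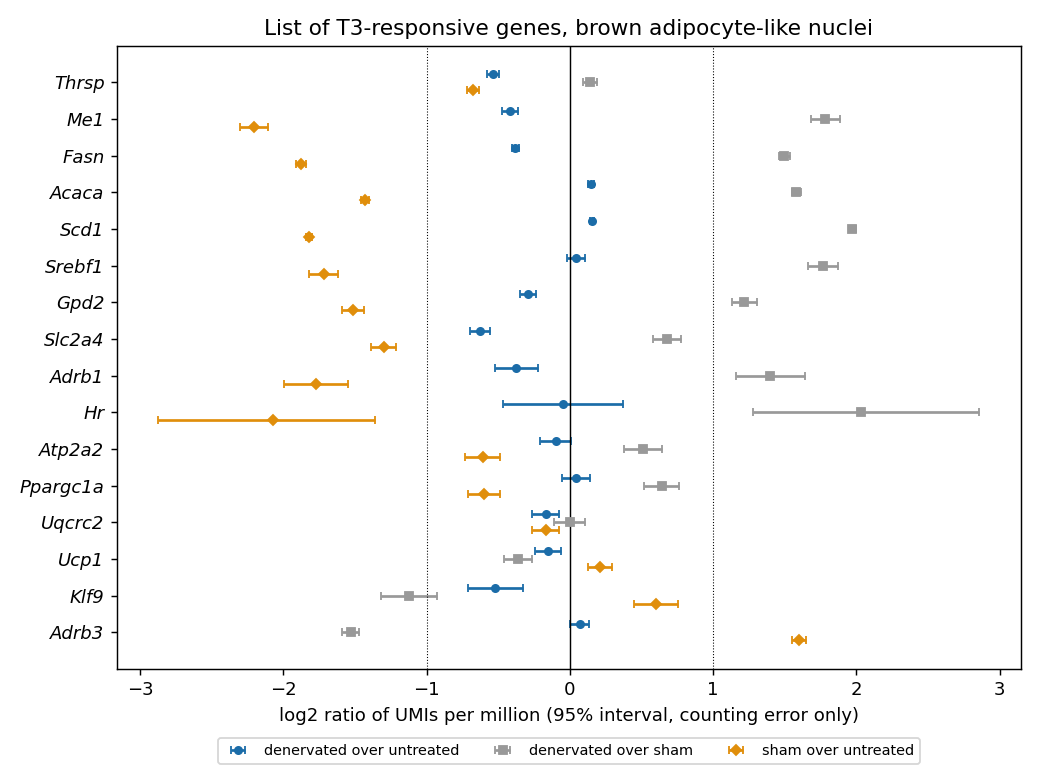
Log2 ratios of UMIs per 1000000 UMIs between BA-like pools (x axis) for the 16 genes of the T3-responsive list (y axis), denervated over untreated (circles), denervated over sham (squares) and sham over untreated (diamonds), with exact 95% intervals and dotted lines at 2-fold. All circles lie between the dotted lines, while 9 diamonds lie below the lower line and 8 squares above the upper one.

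Over the 19 pools of a class and library with at least 50 nuclei, the genes whose levels were most like each member's were found by Pearson's r of log2(CPM + 10) among 11306 genes. These pools share libraries and depth, so r is a description. Thrb was most like Plin1, the lipid droplet coat gene, at 0.96, followed by Gys1 and Vegfa at 0.95. Plin1 is among the brown adipocyte markers used to name the classes, so its level over these pools is partly set by the naming. Tshr was most like Dgat1, which encodes an enzyme of triglyceride synthesis, at 0.96, followed by Tenm4 at 0.96 and Ghr, the growth hormone receptor gene, at 0.95. Trhde was most like Prr16 at 0.97. Rxrg was most like Dlgap1 at 0.92, and Dio2 most like Srsf10, a splicing factor gene, at 0.90. Thra was most like Dnajc17 at 0.87, the lowest top value of the 6 members.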

How the data were processed

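The tables the authors deposited hold raw counts of UMIs for every gene in every barcode, made before they removed debris and ambient RNA. Per the file headers of the untreated and denervated libraries, the counts came from the BD Rhapsody WTA Analysis Pipeline, version 1.9, on GRCm38 with GENCODE annotation, and the sham file has no header. Per the labels, Seurat 4.0.6 was used.

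Barcodes needed 200 or more genes and no more than 50% mitochondrial UMIs. A nucleus was removed as a doublet where both of 2 exclusive marker lists had 3 or more UMIs and the smaller sum reached 25% of the larger. Each library was clustered by itself (2000 variable genes without the members, 30 principal components, 20 neighbours, Louvain resolution 0.5). The rule that turns markers into names was set after the clusters were seen, so differences from the study may come from these names. UMIs were summed by class, with Poisson intervals for CPM, Clopper-Pearson intervals for shares and conditional binomial intervals for ratios. PCR copies are counted once, but intervals cover counting error only. Genes with at least 50 UMIs over both pools were compared, and 2-fold was called. All 6 members are named, and of each pathway list up to 4 genes past 2-fold plus 8 genes fixed by name, 1 of which is not reported here. The members and lists were chosen with earlier results of these data known. The comparison of white and brown adipocytes and the largest sub-cluster alone were added after seeing the data. The ratio script was tested on simulated data. Positions are from GENCODE on GRCm38. Python 3.11.15, numpy 2.4.6, scipy 1.17.1, scikit-learn 1.9.0, python-igraph 0.11.9 and matplotlib 3.10.9 were used.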

Additional observations from a re-analysis of the deposited data

How the results depend on the processing

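No paired analysis was possible because each condition is 1 library. Of 354 values that answer a comparison, recomputed under the alternatives, 329 moved by less than their counting interval and 25 moved by more. A change of sign was counted only where the main interval lay apart from 0, and 0 of the 354 had one. Of all 615 recomputed ratios of members, these included, 60 moved by more and 1 whose main interval lay apart from 0 changed sign. It is that of Thrb below and was counted outside the 354. Ratios whose intervals hold 0 also crossed it, such as Tshr, denervated over untreated, with -0.17 in the largest BA-like sub-cluster, and Dio2, sham over untreated, with -0.08 for nuclei classed by their own markers. Dio2 stayed higher in the denervated BA-like pool, with log2 ratios of 0.61 to 0.97 against untreated and 0.60 to 0.84 against sham. In the largest BA-like sub-cluster alone, the Thrb log2 ratio of denervated over untreated was -0.012 and the Thra log2 ratio of sham over untreated 0.95. After thinning to 800 UMIs, the Thrb log2 ratio of sham over untreated was 0.79. For Tshr, white over brown adipocyte-like, the untreated log2 ratio was 2.18 with Scrublet doublets, 1.64 with median-of-ratios size factors and 2.19 thinned, the sham one 2.04 with either of the last 2 choices, and the denervated one 2.52 with ambient RNA subtracted, where Trhde gave 5.63. In the untreated library those size factors, taken over 734 genes with at least 50 UMIs in each of the 2 pools, lowered every log2 ratio by 0.35. The median over the 10663 genes compared was -0.36 without them. Sham members at least 2-fold lower in white adipocyte-like nuclei were 1 in place of 2 without doublet removal, without mitochondrial UMIs in the totals and with median-of-ratios size factors. Members with a 2-fold range over BA-like sub-clusters were 2 in the untreated library, but 0 with 500 genes, 1 at 10% mitochondrial UMIs and 1 without doublet removal. The sham number was 2, but 0 with 500 genes and 1 at 10%, and the denervated number 0, but 1 at 10% and 1 at resolution 1. At 1.5-fold, pathway genes were 2 higher and 1 lower for denervated over untreated, 5 lower for denervated over sham, and 5 higher and 14 lower for sham over untreated, and with at least 200 UMIs the last comparison had 1 higher. Over all genes at 1.5-fold, 11.9% were higher and 7.13% lower for denervated over untreated. These shares were 22.7% and 19.2% for denervated over sham and 17.8% and 19.7% for sham over untreated. With at least 200 UMIs, 6.69% of all genes were at least 2-fold higher for sham over untreated. Apart from the construction of these choices, the cause was not tested. Nuclei classed by their own markers gave no white adipocyte-like values, and some ratios of members to EC-like nuclei had none where a pool was left with no UMI, mostly with ambient RNA subtracted. The count of Dio2 UMIs, at most 190 in a pool, limits what can be said of its differences, and a class of under 100 nuclei allows only wide intervals.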
